A study of Mus musculus with 2 samples.

Results

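Signals that skeletal muscle releases, and factors that act on its vessels, were examined in mouse gastrocnemius, the large calf muscle. The 10 genes that encode them were chosen by name, out of 55536 annotated genes: Vegfa, Vegfb, Apln, Fndc5, Ostn, Metrnl, Il15, Il6, Fgf21 and Gdf15. Total RNA came from 2 adult B6CASTF1/J males aged 8 to 10 months, a hybrid strain whose parents are C57BL/6J and CAST/EiJ. The samples form 1 group for which the labels give no treatment, and the animals are numbered 2 and 4 under 1 shared donor identifier. What the data answer is how strongly each gene was expressed in whole muscle and how far its level differed between the animals, called replicate 1 and replicate 2. The values used here do not separate the parental alleles.

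Muscle fibres secrete proteins and peptides, termed myokines, that act on the muscle itself, on its capillaries and on distant organs. Vascular endothelial growth factors bind receptor tyrosine kinases on endothelial cells, and in muscle the supply of VEGF-A maintains the capillary bed. Several myokines are known mainly from muscle that contracts, fasts or is under stress, so resting muscle is the usual baseline for them.

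The 2 libraries held 36792619 and 37752252 estimated counts in genes. At this depth a count of 0 allows up to 3 counts, or 0.0815 and 0.0795 CPM (counts scaled to equal library totals), a limit that covers counting error only. Levels are given as TPM, the abundance of a gene's transcripts after scaling for their length and for the library. Nuclear protein-coding genes held 43.1% and 43.8% of TPM, so a rescaling to those genes alone raises each level by a similar factor in both libraries. The labelled tissue was checked with 10 skeletal muscle fibre genes, all of which were measured, with summed levels of 95126 and 101810 TPM. Markers of other cells were far lower, with sums of 61.3 and 70.3 TPM over 10 endothelial genes, 183 and 213 TPM over 10 pericyte and smooth muscle genes, and 272 and 303 TPM over 10 fibroblast genes. Adipocyte markers summed to 596 and 535 TPM, of which Car3 held 375 and 317 and Lpl 142 and 121, macrophage markers to 15.3 and 13.5, satellite cell markers to 63.5 and 55.8 and nerve markers to 37.2 and 40.2. Bone markers summed to 31.1 and 27.1 TPM with 3 of 10 at 0 in both libraries, erythroid markers to 223 and 251 with 2 at 0, and lymphocyte markers to 51.9 and 72.4, almost all of it Ighm, with 5 at 0.

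The Vegfa transcripts differ in their coding 3′ part, where exons 6 and 7 encode stretches that bind heparin and so hold the protein near the cell surface and matrix. The stretch from exon 5 to the stop codon is shown for the 4 coding transcripts with counts in both libraries by the first quantification, because the isoform results below turn on it. Each is printed 5′ to 3′ as annotated in GENCODE M21 (GRCm38, the mm10 build), on the minus strand at chr17:46018858-46024094 with the introns removed. Capitals mark exon 6 (72 bases), exon 7 (132 bases) or both.
Vegfa-202: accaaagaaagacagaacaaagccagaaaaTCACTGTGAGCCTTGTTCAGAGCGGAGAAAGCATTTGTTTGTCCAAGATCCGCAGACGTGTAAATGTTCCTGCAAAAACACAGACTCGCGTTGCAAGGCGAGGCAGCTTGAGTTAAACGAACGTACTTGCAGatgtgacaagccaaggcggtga
Vegfa-207: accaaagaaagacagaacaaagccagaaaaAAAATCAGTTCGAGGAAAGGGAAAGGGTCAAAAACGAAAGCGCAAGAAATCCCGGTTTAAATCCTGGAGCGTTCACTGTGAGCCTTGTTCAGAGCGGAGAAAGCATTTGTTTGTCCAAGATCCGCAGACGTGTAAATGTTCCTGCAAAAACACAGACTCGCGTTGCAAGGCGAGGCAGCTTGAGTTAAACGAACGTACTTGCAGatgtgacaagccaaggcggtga
Vegfa-203: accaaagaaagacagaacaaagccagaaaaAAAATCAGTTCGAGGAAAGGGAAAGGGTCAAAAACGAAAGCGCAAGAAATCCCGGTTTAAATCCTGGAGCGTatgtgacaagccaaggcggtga
Vegfa-201: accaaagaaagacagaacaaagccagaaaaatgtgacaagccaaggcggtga
Exon numbers are those of the 8-exon transcript Vegfa-207, with exon 6 at chr17:46022277-46022348 and exon 7 at chr17:46020991-46021122.

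Vegfb has a comparable pair of coding forms. In Vegfb-201 the sixth exon starts 101 bases earlier than in Vegfb-202, which shifts the reading frame and gives the 2 proteins different ends, a soluble one from Vegfb-201 and a heparin-binding one from Vegfb-202. The coding sequence from the fifth exon to the stop codon (minus strand, chr19:6985383-6985840 for Vegfb-201 and chr19:6982846-6985840 for Vegfb-202, introns removed) shows the added stretch in capitals.
Vegfb-201: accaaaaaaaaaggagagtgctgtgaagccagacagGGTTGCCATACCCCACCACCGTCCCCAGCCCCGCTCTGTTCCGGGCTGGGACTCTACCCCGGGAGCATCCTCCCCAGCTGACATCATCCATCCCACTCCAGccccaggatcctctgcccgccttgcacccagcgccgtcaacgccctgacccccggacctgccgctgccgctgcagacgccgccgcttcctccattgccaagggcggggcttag
Vegfb-202: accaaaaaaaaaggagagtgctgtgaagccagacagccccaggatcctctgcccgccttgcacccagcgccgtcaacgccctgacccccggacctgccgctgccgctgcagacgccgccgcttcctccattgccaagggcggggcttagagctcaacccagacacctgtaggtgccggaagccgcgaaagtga
The whole coding sequence has 621 bases in Vegfb-201 and 564 in Vegfb-202.

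The 10 genes fell into 3 tiers of expression. Vegfb, Vegfa, Ostn and Fndc5 lay above 20 TPM in both animals, Il15 and Metrnl between 1 and 4 TPM, and Apln, Il6, Gdf15 and Fgf21 below 1 TPM. Thus 6 of 10, or 60%, reached 1 TPM in both animals, beside 44.6% of 22015 nuclear protein-coding genes. The median of the 10 was 2.84 TPM in replicate 1 and 1.98 TPM in replicate 2.

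**Figure D1:**
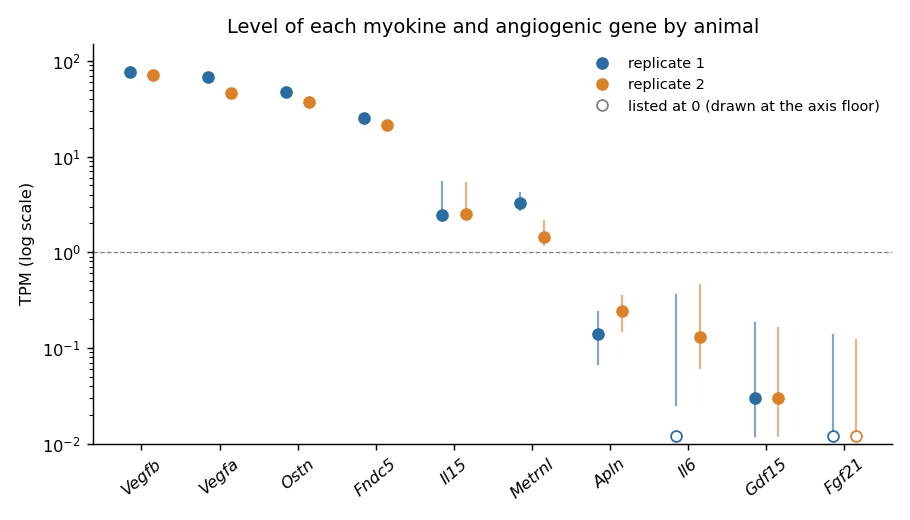
TPM of the 10 genes on a log axis, in order of mean level. Points are single animals, vertical lines the deposited interval of the posterior estimate, cut at the axis floor, open points genes listed at 0, and the dashed line marks 1 TPM. Vegfb at 75.6 and 71.2 TPM stands at the top, and Fgf21 was listed at 0 in both animals.

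Vegfb, a ligand of the receptor Flt1 that does not bind Kdr, was the most abundant of the 10, with 75.6 TPM in replicate 1 and 71.2 TPM in replicate 2 (73.4 ± 3.17, SD, n = 2). It lies on chromosome 19 (6982473 to 6987651, minus strand) and ranked 714 among nuclear protein-coding genes. Its values in the 2 animals nearly coincided, and both exceeded both values of Vegfa. In the second quantification Vegfb had 65.0 and 59.5 TPM and Vegfa 69.96 and 43.5 TPM, so Vegfa was the higher of the pair in replicate 1. The 3 nuclear protein-coding genes nearest to it in level over both animals, by Euclidean distance of log2(TPM + 0.1), were Iscu (distance 0.0144), Psmb5 (0.018) and Zfp91 (0.0195).

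Vegfa, the main growth signal for capillaries (chromosome 17, 46016993 to 46032369, minus strand), had 68.2 TPM in replicate 1 and 46.2 TPM in replicate 2, or 57.2 ± 15.6 (SD, n = 2). These values came from 3669 and 2732 counts. Replicate 1 was higher, and the value of replicate 2 lay between the 2 values of Ostn, although Vegfa exceeded Ostn within each animal. Genes near it in level were Atp1b1 (distance 0.144) and Cops8 (0.165).

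Apln, which encodes the peptide apelin, a ligand of the endothelial receptor Aplnr, was the third angiogenic factor (chromosome X, 48025146 to 48034853). Its level was 0.14 TPM in replicate 1 and 0.24 TPM in replicate 2, from 11 and 21 counts. Both values exceeded the limit that a count of 0 allows, 0.0391 and 0.0345 TPM for this transcript, and both were below 1 TPM.

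Among the myokines Ostn was the most abundant. It encodes musclin, also called osteocrin, a peptide that binds the natriuretic peptide clearance receptor Npr3. It lies on chromosome 16 (27307489 to 27351212, plus strand) and had 47.4 and 36.8 TPM in replicates 1 and 2 (42.1 ± 7.45, SD, n = 2), from 1578 and 1390 counts. An antisense gene, Gm32312, shares 184 exonic bases with it on the other strand, and the strand setting of the quantification was not given in the sources used here, so some reads could belong to that gene. No other of the 10 genes shares exonic bases with another annotated gene.

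Fndc5 encodes the membrane protein from which irisin is released (chromosome 4, 129136999 to 129144593, plus strand). It had 25.5 TPM in replicate 1 and 21.3 TPM in replicate 2 (23.4 ± 2.97, SD, n = 2), from 1712 and 1621 counts. Both values were above those of all lower-ranked members and below those of Ostn, so its place in the order exceeds the spread between animals.

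Metrnl, a secreted meteorin-like factor induced by exercise (chromosome 11, 121701544 to 121716306), had 3.24 TPM in replicate 1 and 1.45 TPM in replicate 2, from 106 and 54 counts. Il15, a cytokine that supports natural killer and memory T cells (chromosome 8, 82331632 to 82403222), had 2.44 and 2.51 TPM from 67 and 68 counts. The Metrnl values lie on either side of those of Il15, so these genes cannot be ordered. For Il15 the deposited posterior mean was 4.02 and 3.88 TPM, above the deposited TPM, and the deposited TPM lay below the deposited interval in both libraries (2.71 to 5.46 in replicate 1). Its counts were divided over several of its 10 annotated transcripts.

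The other 3 myokines were at or near 0. Il6, a cytokine released by contracting fibres (chromosome 5, 30013114 to 30019981), had 0 counts in replicate 1 and 2 counts in replicate 2. Gdf15, a stress signal that acts on the hindbrain (chromosome 8, 70629393 to 70632456), had 1 count in each library. Fgf21, a metabolic hormone best known from liver (chromosome 7, 45613886 to 45615490), had 0 counts in both, which allows up to 0.14 and 0.124 TPM. None of the 3 had more than 2 counts in a library, so their levels could not be measured at this depth. The reads of Il6 and Gdf15 are too few to say whether these genes were expressed.

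Few sequences of the 10 genes recur in other genes. Of the 31-base words of their annotated transcripts, read on the transcribed strand only, between 99.6% (Fndc5 and Vegfa) and 100% (Vegfb, Apln, Il15, Il6, Fgf21 and Gdf15) occurred in no other gene.

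Between the animals, Vegfa, Ostn, Fndc5 and Metrnl were higher in replicate 1, and Vegfb, Il15 and Apln did not pass the test. The counts of each gene were compared by an exact two-sided binomial test, with TMM-scaled library sizes and Benjamini-Hochberg adjustment over the 14095 genes whose mean reached 10 counts. It passed 21.2% of all tested genes, and 10.6% as higher in each replicate. Of the 10 genes 7 had enough counts, 4 of these passed, all as higher in replicate 1, and 0 passed as higher in replicate 2. Il6, Fgf21 and Gdf15 were not tested. Such a test sets 2 libraries against each other and not 2 conditions, and its p-values hold counting error alone. The median log2 ratio (replicate 2 over replicate 1) of the 7 was -0.23, and that of all tested genes 0.0055.

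Metrnl had the largest difference of the 7, with a log2 ratio of -1.11 (95% interval for counting error -1.62 to -0.64; adjusted p = 3.49e-05 by the exact binomial test), or 2.16-fold higher in replicate 1. Vegfa had a log2 ratio of -0.58 (-0.65 to -0.50; adjusted p = 1.07e-54 by the same exact test), or 1.49-fold higher in replicate 1. Among the 3117 genes whose mean reached 1000 counts, 48, or 1.54%, were as far apart as Vegfa or farther. Ostn had a log2 ratio of -0.33 (-0.44 to -0.23; exact adjusted p = 9.03e-09) and Fndc5 one of -0.23 (-0.33 to -0.13; exact adjusted p = 6.87e-05). All 4 differences rest on 1 animal a side.

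The remaining ratios did not pass. Vegfb had a log2 ratio of -0.070 (-0.16 to 0.017; exact adjusted p = 0.293), or 0.044 with total counts, and the interval leaves out a difference of the size seen for Vegfa. Il15 had -0.13 (-0.64 to 0.38; exact adjusted p = 0.841) and Apln 0.73 (-0.33 to 1.98; exact adjusted p = 0.409), and with so few counts both intervals are wider than 1 log2 unit. With an assumed coefficient of variation of 0.1 between animals, 1 of the 7, Metrnl, passed, beside 2.05% of all tested genes. Scaling to total counts added 0.11 to the median log2 ratio of all tested genes, and 3 members (Vegfa, Ostn and Metrnl) passed beside 30.4% of genes. Spike-in scaling moved that median by -0.15, and 5 members, Vegfb added, passed beside 35.0% of genes. With DESeq2 size factors 4 members passed beside 21.2% of genes, without a count minimum 4 beside 12.7%, with a minimum of 30 counts 4 beside 24.1% and in the second quantification 4 beside 20.6%.

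**Figure D2:**
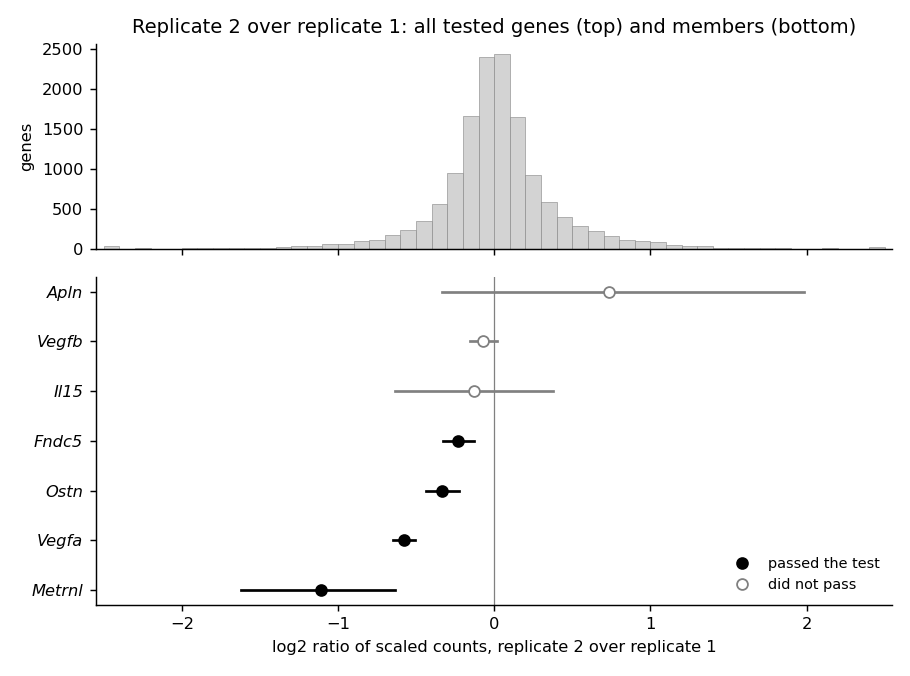
Top, the log2 ratios (replicate 2 over replicate 1) of all 14095 tested genes, with more extreme values placed in the end bins. Bottom, the 7 tested members with 95% intervals for counting error, filled where the test passed. The 4 filled points, from -1.11 for Metrnl to -0.23 for Fndc5, lie left of 0, and the intervals of Il15, Vegfb and Apln include 0.

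Some cell type markers differed between the same libraries. These calls, and those of all lists below, rest on 1 animal a side and hold counting error alone. Over all tested genes, 10.6% passed as higher in each replicate, and 35.0% passed in either direction with spike-ins. Genes with many counts, such as those of muscle fibres, pass at smaller ratios. Of 10 endothelial markers, 5 passed as higher in replicate 2 and 0 as higher in replicate 1 (2 and 0 with spike-ins), with none of the 10 at 0. Of 10 pericyte and smooth muscle markers, 7 passed as higher in replicate 2 and 0 as higher in replicate 1 (6 and 2 with spike-ins). Vegfa was higher in the animal with the lower sum of both lists. Of the 10 skeletal muscle fibre genes, 9 passed as higher in replicate 2 and Ryr1 passed as higher in replicate 1. With spike-ins these numbers were 3 and 7, the median of this list being 0.080 and -0.070 with spike-ins on the log2 scale. Of 10 adipocyte markers, 6 passed as higher in replicate 2 and 2, Car3 and Lpl, as lower there, and of 8 tested satellite cell markers 2 and 1. Fibroblast markers had 2 and 1 of 10, macrophage markers 0 and 0 of 9, nerve markers 1 and 0 of 9, bone markers 0 and 2 of 6, erythroid markers 3 and 0 of 6 and lymphocyte markers 1 and 0 of 1. With spike-ins, the numbers higher in replicate 2 and in replicate 1 became 3 and 2 for adipocyte, 0 and 1 for satellite cell, 1 and 5 for fibroblast, 0 and 2 for macrophage, 0 and 1 for nerve, 0 and 3 for bone, 0 and 1 for erythroid and 1 and 0 for lymphocyte markers. The part of these cells in the differences of the members was not tested. In whole muscle, fewer cells of a type and less RNA per cell cannot be told apart.

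The transcript tables separated the Vegfa forms. Vegfa-202, which carries exon 7 without exon 6, held the largest share of Vegfa TPM, 43.6% in replicate 1 and 47.1% in replicate 2 (45.3% ± 2.48, SD, n = 2). The second quantification, made from reads and an index, put the same transcript first at 39.3% and 44.8%. Vegfa-207, with both exons, held 13.3% and 7.79%, Vegfa-203, with exon 6 only, 8.91% and 11.3%, and Vegfa-201, with neither, 9.39% and 5.79%. By estimated counts Vegfa-202, the longest of the 13 annotated transcripts, took 68.3% and 76.0% of Vegfa.

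Grouped by the coding tail, 61.7% ± 5.25 (SD, n = 2) of TPM on protein-coding Vegfa transcripts carried exon 7 only. Both exons were present in 14.3% ± 4.86, exon 6 only in 13.8% ± 2.77 and neither in 10.3% ± 3.15. In the second quantification these shares were 62.0%, 12.7%, 22.7% and 2.65%. The share with exon 7 only was thus nearly the same in both, while the shares with exon 6 only and with neither exon differed by over 1.5 times. Vegfa-203 is annotated with 513 bases and drew 63.13 and 61.70 counts, so its share of TPM rests on a short model with few reads.

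**Figure D3:**
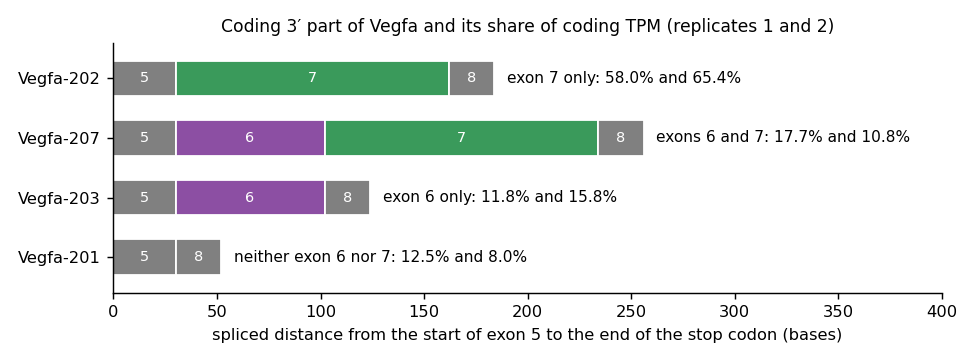
The coding 3′ part of the 4 Vegfa transcripts drawn to scale in spliced bases, exons numbered, with the percent of TPM on protein-coding Vegfa transcripts that has each tail (replicates 1 and 2). The tail with exon 7 only holds 58.0% and 65.4%, and each of the other 3 tails holds at most 17.7%.

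The difference in Vegfa between the animals was not even across transcripts. Vegfa-207 had 428 and 192 counts, and its log2 ratio was -1.30 in the first quantification and -1.28 in the second. Vegfa-202 had 2505 and 2077 counts and ratios of -0.42 and -0.45. The deposited intervals of TPM did not overlap between the animals for Vegfa-207 (6.24 to 10.7 and 1.43 to 5.30) or for Vegfa-202 (25.9 to 32.3 and 18.3 to 23.3). Vegfa-201, with neither exon, had 430 and 203.28 counts and a ratio of -1.23 in the first quantification, similar to that of Vegfa-207, but 134 and 0.0095 counts in the second. The estimated ratio was thus larger in size for Vegfa-207 than for Vegfa-202 in both quantifications. Transcript estimates of 1 gene share reads, and the difference between these ratios was not tested.

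Transcripts with retained introns held 24.8% and 28.0% of Vegfa TPM, but 6.62% and 7.23% of its counts. In the first quantification their log2 ratios went both ways, at 0.17 for Vegfa-209 and 0.24 for Vegfa-210 but -1.34 for Vegfa-205 and -1.31 for Vegfa-208. Counts were few, such as 36.55 and 15.73 for Vegfa-208, and the deposited TPM intervals of Vegfa-205 overlapped between the animals (upper bounds 6.97 and 4.18). The second quantification gave 0.18 for Vegfa-209, -0.52 for Vegfa-205 and -2.89 for Vegfa-208. There Vegfa-210 had 0 and 0.92 counts and no ratio. Total RNA includes unspliced RNA, and its part in these values was not tested.

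Vegfb was divided between its 2 coding forms in a similar way in both animals. Vegfb-202, the heparin-binding form, held 67.8% and 71.96% of Vegfb TPM, and Vegfb-201, the soluble form, 31.9% and 27.3%. The second quantification gave 70.6% ± 4.02 and 28.8% ± 3.83 (SD, n = 2) for these. Vegfb-202 had log2 ratios of 0.027 and 0.045 in the 2 quantifications and Vegfb-201 ratios of -0.28 and -0.34.

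**Figure D4:**
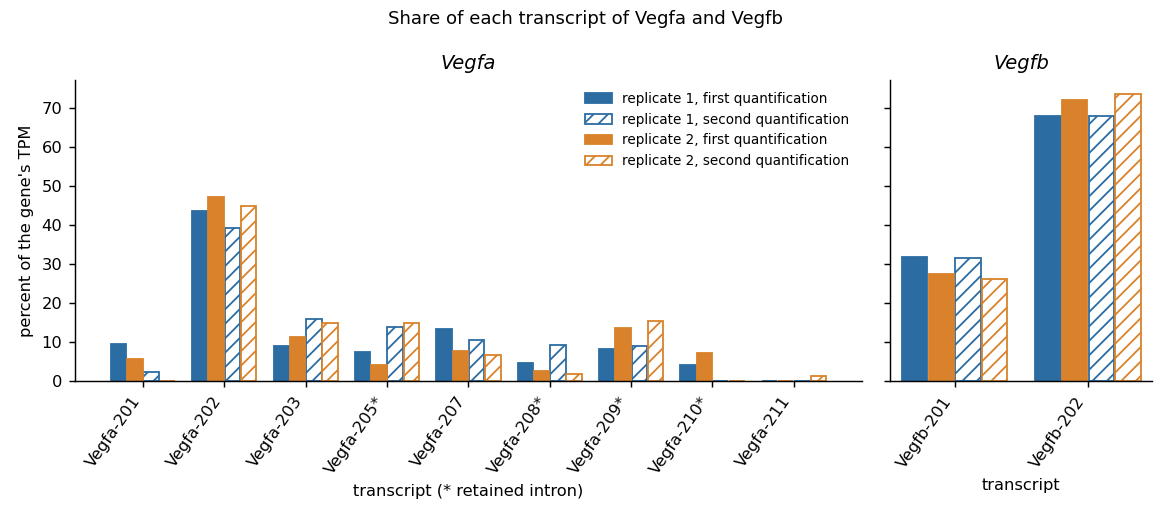
Percent of the TPM of Vegfa (left) and Vegfb (right) held by each transcript with 1% or more in any library, by animal (colour) and quantification (filled or hatched). Vegfa-202, at 43.6% and 47.1%, and Vegfb-202, at 67.8% and 71.96%, were highest in both quantifications, whereas Vegfa-210 received almost no TPM in the second.

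The other members had simpler or weaker transcript estimates. Fndc5, Ostn and Apln have 1 annotated transcript each, with 209, 130 and 77 codons. All Metrnl reads went to Metrnl-201 in the first quantification. For Il15, 3 transcripts with the same 162 codons held most of the counts, and the first quantification placed 34.9% and 49.99% of Il15 TPM on the shortest of them, whereas the second placed 0 counts there in replicate 1, so its split is uncertain.

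Receptors of the 10 factors were read from a list of 21 genes. Of these, 14 reached 1 TPM in both animals and 17 had enough counts for the test. All tested genes passed at 21.2%, with 10.6% as higher in each replicate. Of the 17, 5 passed as higher in replicate 2, 3 as higher in replicate 1 and 9 did not pass, with a median log2 ratio of 0.016 (-0.13 with spike-ins). The numbers higher in replicate 2 and in replicate 1 became 3 and 7 with spike-ins and 6 and 1 with total counts. Among all genes that passed, 49.9% were higher in replicate 2, against 12.8% with spike-ins and 83.3% with total counts. The balance of the receptor calls thus turned with the scaling, as that of all genes did.

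The main VEGF receptors were higher by counts in replicate 2, the animal with the lower Vegfa. These calls set 1 animal against 1 and hold counting error alone. With the assumed variation of 0.1 between animals Vegfa itself did not pass, and that check is given for the members only. Flt1, bound by both VEGF-A and VEGF-B, had 9.28 and 10.9 TPM in replicates 1 and 2 (log2 ratio 0.33), and Kdr, the main signalling receptor of VEGF-A, 4.94 and 5.92 TPM (0.29). The coreceptor Nrp1 had 6.46 and 9.81 TPM (0.63). All 3 passed the test, although Kdr did not with spike-ins (0.14, adjusted p = 0.126 by the exact test). Kdr is itself 1 of the 10 endothelial markers, whose sum was higher in the same animal, and the part of endothelial cells in these differences was not tested. Nrp2, at 1.77 and 1.74 TPM, and the lymphatic receptor Flt4, at 0.89 and 1.05 TPM, did not pass. Aplnr, the apelin receptor, had 1.06 and 1.67 TPM and passed as higher in replicate 2 (0.61), so that the receptor was several times more abundant than its ligand Apln in each animal.

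Cytokine receptors were uneven. Il6st, the signalling chain shared by the interleukin-6 family, was the most abundant receptor at 74.6 and 76.9 TPM, and passed at a log2 ratio of 0.067, which became -0.083 with spike-ins. The ligand-specific chain Il6ra had 0.67 and 0.74 TPM and did not pass, with a log2 ratio of counts of -0.21, against the direction of its TPM. Il15ra, which presents interleukin-15 to neighbouring cells, had 10.7 and 6.87 TPM and did not pass. Its partners of lymphocytes were near 0, with Il2rb at 0 and 2 counts and Il2rg at 12 and 7 counts.

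Natriuretic peptide receptors include Npr3, the receptor of musclin, at 2.91 and 2.73 TPM, below its ligand Ostn in both animals. The guanylyl cyclase receptors Npr2, at 13.1 and 10.5 TPM, and Npr1, at 2.62 and 2.41 TPM, stand beside it. Npr2 passed as higher in replicate 1 (log2 ratio -0.19, and -0.074 without passing under total counts), and Npr1 and Npr3 did not pass. The integrin chains Itgav and Itgb5, proposed as an irisin receptor, had 22.1 and 20.1 TPM and 51.1 and 51.5 TPM, and Itgav passed at -0.17 (-0.055 without passing under total counts). Kit, proposed as a receptor of meteorin-like protein, had 0.53 and 0.19 TPM from 20 and 20 counts, and did not pass.

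Receptors of the hormones FGF21 and GDF15 differed in level. Fgfr1, a receptor of many fibroblast growth factors, had 20.5 and 18.3 TPM, whereas its coreceptor for FGF21, Klb, had 3 and 5 counts. The GDF15 receptor Gfral had 0 counts in both libraries. Its partner Ret had 1.68 and 1.03 TPM and passed as higher in replicate 1 (-0.70).

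**Figure D5:**
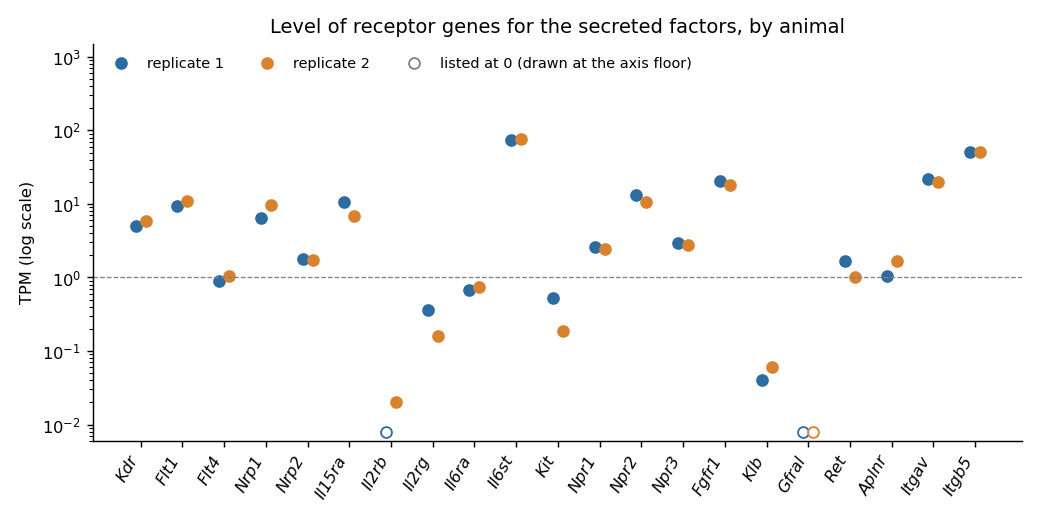
TPM of 21 receptor genes on a log axis, 1 point per animal, open points listed at 0 and the dashed line at 1 TPM. Il6st, at 74.6 and 76.9 TPM, and Itgb5, at 51.1 and 51.5 TPM, are highest, and Gfral is listed at 0 in both animals.

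Relatives of the angiogenic members lay below Vegfa and Vegfb and above Apln in mean TPM. As background for this list, 10.6% of all tested genes passed in each direction, and 35.0% in either direction with spike-ins. Of 11 measured genes of this list, 4 passed as higher in replicate 2, 2 as higher in replicate 1 and 5 did not pass (median log2 ratio 0.32), against 3 and 3 that passed with spike-ins (median 0.17). Fgf1, a fibroblast growth factor, was the most abundant at 14.7 and 8.73 TPM and, with Thbs1, an inhibitor of vessel growth at -0.49, was higher in replicate 1 (-0.44). The endothelial receptors Tie1 (3.72 and 6.10 TPM; 0.76) and Tek (3.07 and 3.69 TPM; 0.32), the arterial ligand Efnb2 (1.37 and 3.49 TPM; 0.79) and the lymphatic growth factor Vegfc (0.25 and 0.63 TPM; 1.28) were higher in replicate 2, Tek not passing with spike-ins (0.17). Angpt1, an activating ligand of Tek, had 3.84 and 3.06 TPM and Fgf2 3.34 and 2.27 TPM, and neither passed. The log2 ratio of the Fgf2 counts was 0.098, against the direction of its TPM.

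Among 13 regulators of these genes, 5 passed as higher in replicate 1, 3 as higher in replicate 2 and 5 did not pass (median log2 ratio -0.10). The numbers higher in replicate 1 and in replicate 2 were 8 and 1 with spike-ins and 3 and 4 with total counts (median 0.012). Beside them stand 21.2% of all tested genes, or 35.0% with spike-ins and 30.4% with total counts. Egln3, a prolyl hydroxylase that is itself induced by hypoxia, had 15.2 and 8.06 TPM (-0.88). Ppara, a nuclear receptor for fatty acids, had 8.10 and 5.06 TPM (-1.15), and Ppargc1a, a coactivator that can drive Vegfa and Fndc5, 19.8 and 13.8 TPM (-0.53). These 3 were higher in replicate 1, as were Egln1 (86.6 and 78.5 TPM; -0.11, but 0.0015 with total counts) and Esrra (47.2 and 43.0 TPM; -0.12, and -0.0051 with total counts). Ppargc1b (3.96 and 6.18 TPM; 0.74), the hypoxia factor Epas1 (33.1 and 36.5 TPM; 0.17) and Egln2 (49.1 and 54.9 TPM; 0.16) were higher in replicate 2, the last 2 at 0.024 and 0.015 with spike-ins. Atf4, a stress factor that can induce Fgf21, had 60.3 and 55.1 TPM, and Arnt 18.6 and 18.5 TPM, and neither passed.

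Of 9 tested genes for processing and storage of secreted factors, 2 passed, both as higher in replicate 2 (median log2 ratio 0.060). With spike-ins 1 passed as higher in replicate 2 and 3 as higher in replicate 1 (median -0.089). All tested genes passed at 21.2%, and at 35.0% with spike-ins. The 2 that passed were the heparan sulfate proteoglycan Hspg2 (22.4 and 23.5 TPM; 0.060, but -0.089 with spike-ins) and the matrix protease Mmp9 (4 and 24 counts; 2.19). Furin, a protease that cleaves many precursors, had 23.4 and 21.3 TPM, Mmp2 9.36 and 11.8 TPM, Adam17 7.75 and 8.34 TPM, Adam10 7.0 and 7.14 TPM and Pcsk6 3.99 and 4.05 TPM, and these did not pass. For Adam17 the log2 ratio of counts was -0.22, against the direction of its TPM.

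Other secreted factors of muscle were listed as 25 genes, of which 9 reached 1 TPM in both animals. The share of all tested genes that passed was 21.2%, or 35.0% with spike-ins. Of 17 tested, 4 passed as higher in replicate 2 and 3 as higher in replicate 1 (median log2 ratio 0.070), against 2 and 4 with spike-ins (median -0.079). The matrix proteins Dcn (70.6 and 75.6 TPM; 0.12) and Sparc (59.1 and 72.7 TPM; 0.33), the growth inhibitor Mstn (25.9 and 28.1 TPM; 0.15) and the muscle growth factor Fgf6 (1.22 and 2.41 TPM; 1.01) were higher in replicate 2, although Dcn (-0.028) and Mstn (-0.0020) changed sign with spike-ins. Erfe, which encodes erythroferrone or myonectin, had 58 and 13 counts (-2.22), Angptl4, a lipase inhibitor, 63 and 35 counts (-0.98) and Postn 104 and 69 counts (-0.73), all higher in replicate 1. Metrn, the paralog of Metrnl, had 21.2 and 22.9 TPM, above Metrnl in both animals, and did not pass. Fstl1, at 9.53 and 8.61 TPM, and Fndc3b, at 4.60 and 4.16 TPM, did not pass either.

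The promoters of the members ranged widely in their content of the dinucleotide CG. RefSeq promoter windows (GRCm38.p6, 250 bases before to 50 after the start) were matched by symbol for 8 of the 10 genes, all but Ostn and Il15. The 250 bases before the start are shown for Vegfb, the most abundant member (minus strand, chr19:6987652-6987901), and Il6, with 0 and 2 counts (plus strand, chr5:30012864-30013113), with each CG in capitals.
Vegfb promoter: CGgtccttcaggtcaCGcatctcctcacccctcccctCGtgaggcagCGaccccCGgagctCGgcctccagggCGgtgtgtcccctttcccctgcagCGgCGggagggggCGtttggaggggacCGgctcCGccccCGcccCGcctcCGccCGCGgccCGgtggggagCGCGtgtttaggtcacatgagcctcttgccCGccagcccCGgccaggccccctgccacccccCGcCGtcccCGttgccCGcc
Il6 promoter: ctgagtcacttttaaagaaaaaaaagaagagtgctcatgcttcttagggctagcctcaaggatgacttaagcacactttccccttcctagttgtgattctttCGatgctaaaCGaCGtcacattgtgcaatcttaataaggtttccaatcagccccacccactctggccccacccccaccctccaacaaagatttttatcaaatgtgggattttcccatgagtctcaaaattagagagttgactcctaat
The full 300-base windows held 48 CG for Fndc5, 31 for Vegfb, 24 for Metrnl, 15 for Apln, 9 for Fgf21 and 3 for Il6. Vegfa has windows with 16 and 10 CG and Gdf15 windows with 7 and 1. Over 32851 windows the median was 7. The word ACGTG, the core of many hypoxia response elements, was read on both strands, so that CACGTG counts as both. It was in the windows of Fndc5 and Fgf21 and in 1 window each of Vegfa and Gdf15, and in 19.6% of all windows. For Vegfa this was the window with 10 CG (chr17:46025114-46025413), inside the gene. The Vegfa window with 16 CG, at the annotated start of the gene, had none. The word GCGTG was in the windows of Fndc5, Vegfb, Metrnl and Fgf21 and the same Vegfa window, and in 32.4% of all windows. A match of letters is a description of the window and says nothing of binding.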

How the data were processed

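Gastrocnemius RNA of 2 animals was sequenced. Per the labels, each library was built from 300 ng of total RNA depleted of ribosomal RNA, with strand kept and spike-in RNA added. Per the deposited README, the build was mm10 and the annotation GENCODE M21. Quantifier versions and strand setting are not given in the sources used here.

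The authors deposited expected counts without normalization, in tables of genes and of transcripts. The deposited TPM values are scaled over all entries, spike-ins included. The percent of a gene's TPM held by each transcript is a column the authors deposited, as are posterior means and interval bounds, whose settings are not stated. A second deposited transcript table, with other column names and made from the reads with an index, was summed over genes.

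Counts were rounded, and entries outside genes, 0.257% and 0.308% of counts, were dropped. TMM factors came from edgeR 4.0.16 (R 4.3.3). A prior of 1 count entered each log2 ratio. These ratios are of counts and can point against TPM, as for Il15, Il6ra, Npr1, Nrp2, Fgf2, Arnt, Adam17, Adam10 and Fstl1. None of these genes passed. Myh1, a muscle fibre gene, did pass as higher in replicate 2 (0.040, but -0.11 with spike-ins) against its TPM of 698 and 688. Tests used an adjusted p of 0.05. The binomial test was checked on counts simulated with counting error alone, so the check does not cover variation between animals. Intervals of ratios are 95% Clopper-Pearson intervals. Software was Python 3.11.15 with numpy 2.4.6, scipy 1.17.1, pandas 2.3.3 and matplotlib 3.10.9.

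Of the 3 genes nearest to Vegfa in level, 1 is not reported here. Named genes are the members, all receptors and, of each further list, the 6 most abundant and those that passed at a log2 ratio of 0.5 or more in size. Thbs1, Ryr1, Myh1, Ighm, Car3 and Lpl were named after their values were seen. The members and lists were chosen with earlier results of these data known. Alternatives were 3 further scalings (size factors of DESeq2 1.42.0, total counts, spike-ins), other count minimums and priors, edgeR's exact test with an assumed coefficient of variation of 0.1, other denominators of the shares, leaving out either animal, and the second quantification.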

Additional observations from a re-analysis of the deposited data

How the results depend on the processing

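Of 49 alternative values of the 7 log2 ratios, 43 kept their direction and their side of the threshold, and 1 changed direction. That was Vegfb, at 0.044 with total counts (exact adjusted p = 0.517). The 49 include priors of 0.25 and 5 counts, which enter the ratio and not the test, so these could not change the side of the threshold. With spike-ins Vegfb passed, at -0.22 (adjusted p = 6.25e-06), and with total counts Fndc5 did not, at -0.12 (adjusted p = 0.0659). The number of members that passed was 3 with total counts, 5 with spike-ins and 4 with DESeq2 size factors, without a count minimum, with a minimum of 30 and in the second quantification, the same 4 genes in each of these. With an assumed variation of 0.1 it was 1, Metrnl, as Vegfa (adjusted p = 0.166), Ostn (0.853) and Fndc5 (1) no longer passed by edgeR's exact test. Of all genes that passed, 49.9% were higher in replicate 2, against 83.3% with total counts and 12.8% with spike-ins.

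The number of members at 1 TPM or more was 6 under each alternative run, with each animal left out included. The share of Vegfa-202 was 42.1% in the second quantification, 61.7% among protein-coding transcripts, 72.2% of counts (added after the data were seen) and between 43.6% and 47.1% with 1 animal left out. The cause of these moves in share is their construction in the last 3 and was not tested in the first. Leaving out an animal gives no ratio. No paired analysis was possible because there is 1 group. Depth limits Il6, Fgf21 and Gdf15, and the intervals of Apln and Il15.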
